A study of Homo sapiens with 8 samples.

Results

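The HOX genes are 39 genes of the human HOXA, HOXB, HOXC and HOXD clusters. Their members were chosen by name, as every locus of the deposited gene table whose gene name is HOX followed by a cluster letter and a position number. The 39 genes fell in 34 of the 29004 loci, because 4 loci carried several HOX names: HOXA5 with HOXA6, HOXA9 with HOXA10, HOXC4 with HOXC5 and HOXC6, and HOXD10 with HOXD11. The transcriptome came from AB8/13 cells, an immortalized human podocyte line, grown at 33 °C and carrying a lentiviral, doxycycline-inducible construct of wild-type LATS2, the kinase that phosphorylates YAP. The 4 LATS2 OE samples were exposed to doxycycline at 125 ng/mL over 8 h, and the other 4 samples, of the same line, stayed untreated. Induction of LATS2 and exposure to the drug, which only the LATS2 OE samples had, cannot be told apart. The table holds 1 pooled value per locus and group in FPKM, the fragments of a locus scaled to transcript length and to sequencing depth. Neither an SD nor a test across the samples could therefore be obtained, the depth behind each sample is unknown, and every ratio below is a description of 2 pooled values without a replicate check.

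HOX genes encode homeodomain transcription factors that give cells their identity along the head-to-tail axis of the embryo. In each cluster the genes lie in the order of their position numbers, and low numbers are in general used further towards the head and earlier than high numbers. Adult cells usually keep a HOX pattern that reflects where in the embryo they came from. In mice, genes of the paralogous group 11 are needed for the metanephric kidney to form. HOX proteins bind DNA together with TALE homeodomain cofactors of the PBX and MEIS families, Polycomb complexes keep silent HOX genes off, and microRNA genes of the miR-10 and miR-196 families lie inside the clusters.

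A fault of the table decides how the HOX levels can be read. In most cells of at least 1 FPKM the decimal point was lost and set again before the last 3 digits, so that such a cell stands for 2 or 3 possible values that differ by a factor of 10 or 100. Of the 24849 cells of at least 1, 0 showed 4 or 5 decimals, and 24318 had more than 1 possible value. Cells below 1 FPKM were intact. Of the 27 HOX loci at or above 1 FPKM in both groups, 18 had 3 possible levels at the ratio given here and 8 had 2. For these 26 loci the lowest possible value is printed below for both groups, and the true level may be 10 or 100 times higher in both alike. At the locus of HOXC4, HOXC5 and HOXC6 both cells are damaged too, but only 1 pair of their possible values gives the ratio of the smallest change. Levels of different HOX genes were for this reason not ranked. The ratio between the groups was taken from the pair of possible values with the smallest change. For every HOX locus of at least 1 FPKM the next possible pair lay at least 6.73-fold apart. Among the 4514 loci with intact cells in both groups and a mean of at least 0.1 FPKM, 5 (0.111%) differed by 6.67-fold or more. Most of these intact loci lie below 1 FPKM, so this share need not hold for loci at or above 1 FPKM.

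The sequences shown first belong to the microRNAs of the clusters. Their host regions include MIR196A2, the locus with the furthest change inside a HOX cluster. Of the HOX 3′ UTRs, that of HOXB8, the gene with the highest ratio, held the match to miR-196a-5p with the most paired bases. Only miR-196a-5p was scored for pairing over its full length. Both MIR196A2 and HOXB8 were chosen by their ratios, and a link between them was not tested. Mature sequences are from RefSeq (GRCh38.p14), written 5′ to 3′, and capitals mark the seed, bases 2 to 8, through which a microRNA recognises its targets. The miR-196 genes lie in the HOXA, HOXB and HOXC clusters and share a seed, whereas miR-10a lies beside HOXB4 and miR-615 in the HOXC cluster.
hsa-miR-196a-5p: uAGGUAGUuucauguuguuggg
hsa-miR-196b-5p: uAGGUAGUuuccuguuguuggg
hsa-miR-10a-5p: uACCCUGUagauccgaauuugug
hsa-miR-615-5p: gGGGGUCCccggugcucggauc

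The counterparts in the HOX transcripts were read from the hg19 genome (GENCODE annotation lifted to GRCh37). They are shown for HOXB8 and the HOXA5 and HOXA6 locus, which had the highest ratios, for HOXA7, the HOX gene with the most seed matches, and for HOXC8, which carried 3 matches and a ratio below 1. The HOXB8 site lies at chr17:46690132-46690153 on the minus strand, and its capitals mark the 21 of 22 bases that pair with miR-196a-5p. The other sites lie at chr7:27181006-27181028 (HOXA5, minus strand), chr7:27194049-27194071 (HOXA7, minus strand) and chr12:54406014-54406036 (HOXC8, plus strand), and their capitals mark ACTACCT, the letters that pair with the seed. All 4 sites are in the 3′ UTR of their gene.
HOXB8: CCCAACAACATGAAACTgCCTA
HOXA5: gatatttttattcaaACTACCTa
HOXA7: acctactcccctaaaACTACCTa
HOXC8: ataaatctttaacatACTACCTa

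The line transcribed nearly all HOX loci of positions 1 to 11 and very little of the position 12 and 13 end, alike in both groups. At least 1 FPKM was listed in both LATS2 OE and untreated cells for 27 of the 34 loci, which hold 32 of the 39 HOX genes. All 12 loci of positions 4 to 8 and all 8 loci of positions 9 to 11 were among them. Of the 8 loci of positions 1 to 3, 7 reached 1 FPKM in both groups, and HOXB1, a gene of the embryonic hindbrain, was listed at 0 in both. None of the 6 loci of positions 12 and 13 reached 1 FPKM in either group. A mean of both groups of at least 0.1 FPKM, the limit used for all ratios here, was reached by 28 loci with 33 genes.

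**Figure D1:**
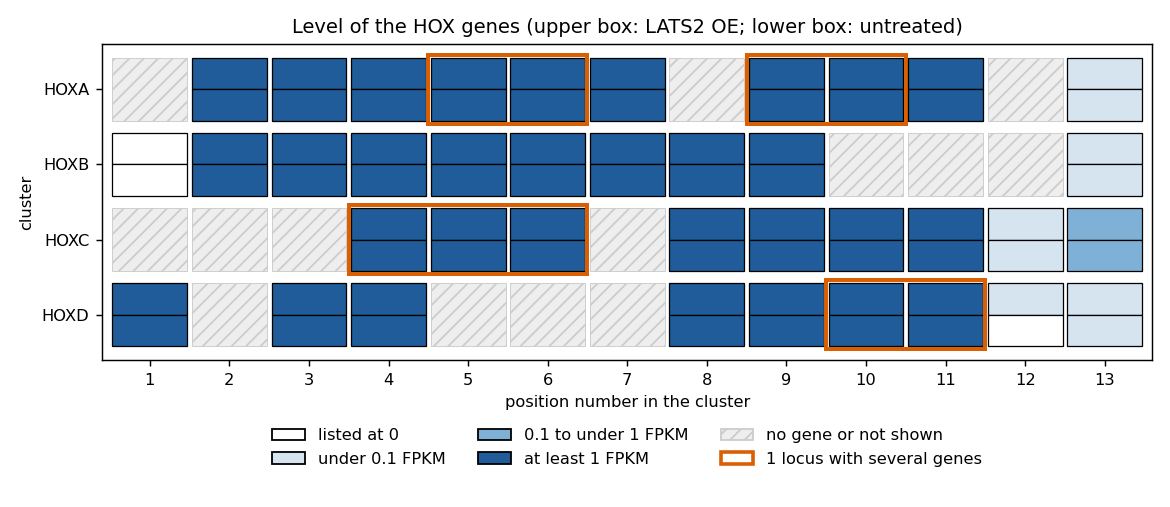
Level class of each HOX gene by cluster (vertical axis) and position number (horizontal axis), from the pooled FPKM. The upper box of a gene is LATS2 OE and the lower box untreated, hatched boxes are positions without a gene or not shown, and orange frames hold genes that share 1 locus. Of the genes shown at positions 1 to 11 only HOXB1 is below 1 FPKM, and the 6 loci of positions 12 and 13 are below 1 FPKM.

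At the position 12 and 13 end, HOXD13, a gene of digit and genital development, was listed at 0.0276 FPKM in LATS2 OE and 0.0162 FPKM in untreated cells. HOXD12 stood at 0.0266 FPKM in LATS2 OE cells and at 0 in untreated cells. HOXA13, which with HOXD13 patterns the distal limb and the urogenital outlet, had 0.0554 FPKM in LATS2 OE cells and 0.0734 FPKM in untreated cells. Values of this size lie under the limit of 0.1 FPKM, where 46.8% of all loci differed by 1.5-fold or more, so the differences between the groups were not read. HOXB13, a gene of the prostate and the hindgut, had 0.0296 FPKM in LATS2 OE and 0.0102 FPKM in untreated cells. HOXC12 had 0.0276 FPKM in LATS2 OE and 0.0185 FPKM in untreated cells. HOXC13, which is needed for hair and nails, was the exception with 0.326 FPKM in LATS2 OE cells and 0.308 FPKM in untreated cells. These 2 intact values differed by a log2 ratio of 0.08, in a range of levels, 0.1 to 1 FPKM, where 21.7% of all loci passed 1.5-fold and 56.1% were higher in LATS2 OE.

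The comparison asks which transcripts change when LATS2 is induced. In the reading with the smallest change, none of the 28 HOX loci differed between LATS2 OE and untreated cells by 1.5-fold or more. For all of them but HOXC13 the cells are damaged, and the next possible pair lies at least 6.73-fold apart. Over all 16979 loci with a mean of at least 0.1 FPKM, 8.48% did, and over the 12218 loci at or above 1 FPKM in both groups, 3.15% did. A change of 2-fold or more was seen for 2.66% of all loci, and these shares rest on the same reading. The count of 0 is close to what these shares give for so few loci, 8.48% of 28 being 2.37 loci and 3.15% of 27 being 0.85 loci. The HOX log2 ratios ran from -0.27 to 0.57. Small ratios above 1 prevailed, with 21 of the 28 loci (75.0%) higher in LATS2 OE cells, against 50.6% of all loci. The median log2 ratio of the HOX loci was 0.10, a 1.07-fold difference, and that of all loci was 0.00. Restricted to at least 1 FPKM, 20 of 27 HOX loci (74.1%) were higher in LATS2 OE, against 48.5% of all such loci, and the HOX median was 0.11. The median size of the difference in either direction was 0.15 for the HOX loci and 0.07 for all loci of at least 1 FPKM. Whether differences of this size exceed the spread between samples cannot be said from pooled values. HOX genes of a cluster share regulation and some share reads, so their ratios are not independent of each other.

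**Figure D2:**
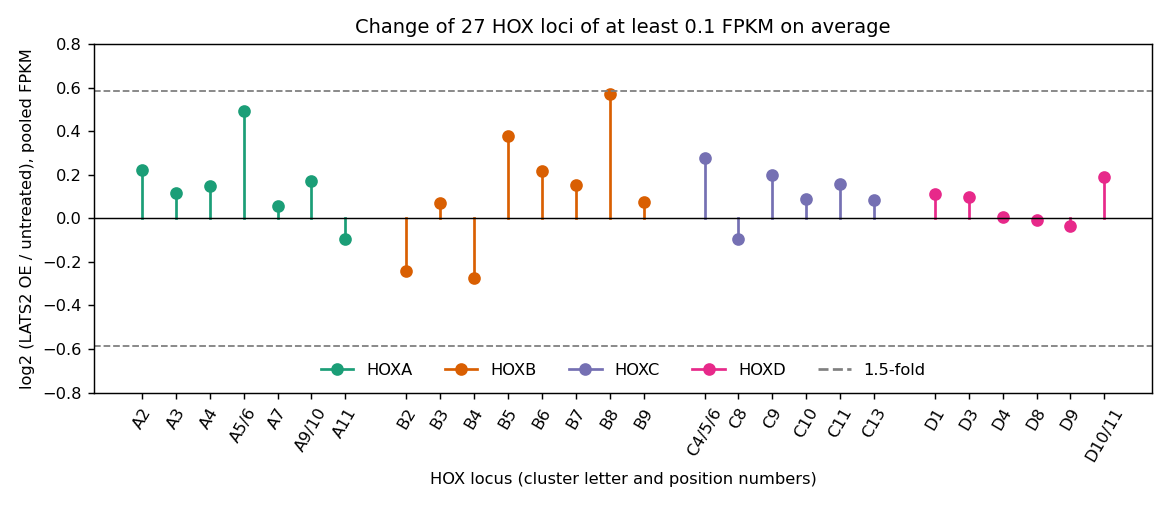
The log2 ratio of pooled FPKM, LATS2 OE over untreated, for 27 of the 28 HOX loci with a mean of at least 0.1 FPKM, ordered by cluster and position. Dashed lines mark 1.5-fold. All points lie between -0.27 and 0.57, inside the dashed lines, and 21 lie above 0.

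**Figure D3:**
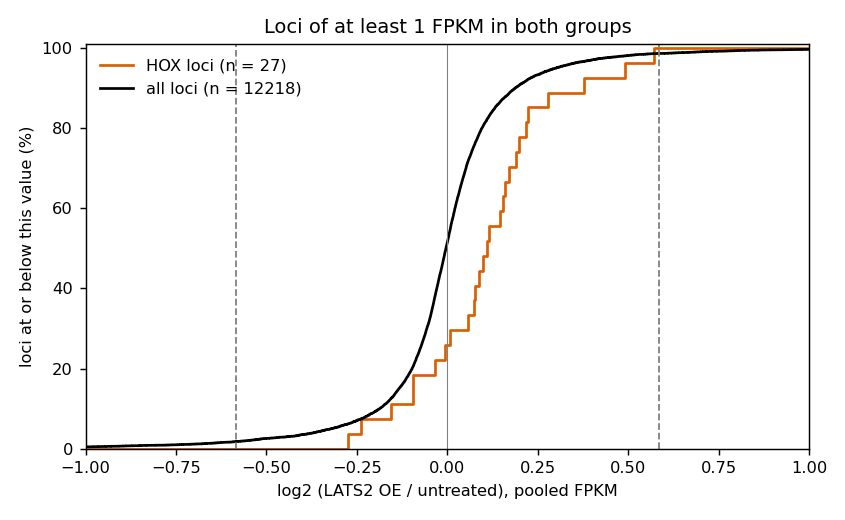
Share of loci (%) at or below a given log2 ratio of LATS2 OE over untreated, for the 27 HOX loci and all 12218 loci at or above 1 FPKM in both groups. Dashed lines mark 1.5-fold. The HOX curve runs to the right of the curve of all loci over most of its course, with a median of 0.11.

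Cluster A, whose HOX loci span chr7:27132614-27239725 in hg19, had 8 loci with a ratio, 6 of them higher in LATS2 OE, with a median log2 ratio of 0.13. The locus of HOXA5, which acts in lung development, and its neighbour HOXA6 had the second highest HOX ratio, with at least 9.09 FPKM in LATS2 OE and 6.46 FPKM in untreated cells. This was 1.41-fold higher, and 1.96% of the 12218 loci of at least 1 FPKM had a log2 ratio of 0.49 or more. The fragments of HOXA5 and HOXA6 cannot be told apart. HOXA2, which patterns the second branchial arch, had at least 1.34 FPKM in LATS2 OE and 1.15 FPKM in untreated cells (log2 ratio 0.22). From HOXA2 to HOXA4 the ratios stayed above 1. HOXA3, needed for thymus and parathyroid, had at least 9.50 FPKM in LATS2 OE and 8.78 FPKM in untreated cells (0.11). HOXA4, a gene of the neck vertebrae in mice, had at least 5.21 FPKM in LATS2 OE and 4.71 FPKM in untreated cells (0.15). The remaining loci of the cluster moved less than HOXA5 and HOXA6. HOXA7 had at least 1.37 FPKM in LATS2 OE and 1.32 FPKM in untreated cells (0.06). HOXA9, a factor of blood stem cells, and HOXA10, a factor of the uterus, shared a locus with at least 7.06 FPKM in LATS2 OE and 6.27 FPKM in untreated cells (0.17). HOXA11, of the kidney-forming paralogous group, had at least 3.75 FPKM in LATS2 OE and 4.00 FPKM in untreated cells, a log2 ratio of -0.09.

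Cluster B, whose HOX loci span chr17:46606807-46806111 in hg19, held the widest spread, with a median size of the difference of 0.23 on the log2 scale and both the highest and the lowest HOX ratio. HOXB8, a gene that in mice acts in microglia and spinal cord, had at least 3.68 FPKM in LATS2 OE and 2.48 FPKM in untreated cells. The ratio was 1.49-fold, just inside the limit of 1.5-fold, and 1.42% of all loci of at least 1 FPKM had a log2 ratio of 0.57 or more. HOXB5, which acts in the neurons of the gut, had at least 1.97 FPKM in LATS2 OE and 1.51 FPKM in untreated cells, or 1.3-fold. HOXB8, HOXB5 and the HOXA5 and HOXA6 locus were the 3 HOX loci whose log2 ratio passed 0.32 in size, as 19.4% of all loci and 9.40% of those at or above 1 FPKM did. All 3 were higher in LATS2 OE, a direction and size that 4.43% of all loci at or above 1 FPKM showed. HOXB6, between HOXB5 and HOXB7, had at least 8.21 FPKM in LATS2 OE and 7.06 FPKM in untreated cells (0.22). HOXB7 had at least 2.30 FPKM in LATS2 OE and 2.07 FPKM in untreated cells (0.15). HOXB9, a gene of the rib-bearing axis in mice, had at least 1.60 FPKM in LATS2 OE and 1.51 FPKM in untreated cells (0.08). Towards low position numbers the cluster held ratios below 1. HOXB4, used to expand blood stem cells, had the lowest HOX ratio, with at least 3.24 FPKM in LATS2 OE and 3.92 FPKM in untreated cells (-0.27), and 6.24% of all loci of at least 1 FPKM had a ratio as low or lower. HOXB2, a hindbrain gene, had at least 2.52 FPKM in LATS2 OE and 2.98 FPKM in untreated cells (-0.24). HOXB3, between them, had at least 5.45 FPKM in LATS2 OE and 5.18 FPKM in untreated cells (0.07).

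Cluster C, whose HOX loci span chr12:54329112-54449814 in hg19, had 5 of 6 loci higher in LATS2 OE and a median log2 ratio of 0.12. The locus of HOXC4, HOXC5 and HOXC6, which share exons upstream, had 11.6 FPKM in LATS2 OE and 9.53 FPKM in untreated cells in the reading with the smallest change, a ratio of 1.21-fold. Both values depend on that reading, and the next possible pair lies 8.24-fold apart, lower in LATS2 OE. HOXC8, a gene of the thoracic axis, had at least 3.73 FPKM in LATS2 OE and 3.99 FPKM in untreated cells (-0.10). It was the only locus of the cluster with a ratio below 1. HOXC9, which in mice acts in thoracic motor neurons, had at least 5.43 FPKM in LATS2 OE and 4.74 FPKM in untreated cells (0.20). HOXC10, which in mice acts in lumbar motor neurons, had at least 1.45 FPKM in LATS2 OE and 1.36 FPKM in untreated cells (0.09). HOXC11, the cluster C gene of the kidney-forming group, had at least 3.54 FPKM in LATS2 OE and 3.17 FPKM in untreated cells (0.16). None of the 6 passed a log2 ratio of 0.32.

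Cluster D, whose HOX loci span chr2:176957532-177055635 in hg19, moved least, with a median size of the difference of 0.07, the same as for all loci of at least 1 FPKM. HOXD1, which in mice acts in pain-sensing neurons, had at least 4.55 FPKM in LATS2 OE and 4.22 FPKM in untreated cells (0.11). HOXD3, a gene of the upper neck vertebrae in mice, had at least 1.59 FPKM in LATS2 OE and 1.49 FPKM in untreated cells (0.10). HOXD4, its neighbour in the neck vertebrae, had at least 1.20 FPKM in LATS2 OE and 1.19 FPKM in untreated cells, a log2 ratio of 0.01. HOXD8 and HOXD9 were as close between the groups. HOXD8 had at least 1.08 FPKM in LATS2 OE and 1.09 FPKM in untreated cells (-0.01). HOXD9 had at least 6.26 FPKM in LATS2 OE and 6.41 FPKM in untreated cells (-0.04). The locus of HOXD10, a gene of the lumbar and hindlimb nerves, and HOXD11, of the kidney-forming group, had the highest ratio in the cluster with 1.14-fold. Its values were at least 3.15 FPKM in LATS2 OE and 2.76 FPKM in untreated cells.

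Read by position instead of cluster, the 12 loci of positions 4 to 8 held all 3 loci whose log2 ratio passed 0.32, and their median was 0.15. The 7 loci of positions 1 to 3 had a median of 0.10 and the 8 loci of positions 9 to 11 one of 0.12. Of the kidney-forming paralogous group 11, HOXA11 and HOXC11 were thus transcribed at 1 FPKM or more in both groups, with log2 ratios of -0.09 and 0.16. HOXD11 has no value of its own, since it shares a locus with HOXD10. A merged locus was placed by the first of its genes.

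Between the HOX genes lie antisense and other noncoding genes, microRNA genes and loci without a gene name. Inside the spans from the outermost HOX loci, 33 such loci were listed, and 27 of them had a mean of at least 0.1 FPKM. Of these, 5 differed by 1.5-fold or more, against 0 of the 28 HOX loci and 8.48% of all loci. All 5 had a mean below 1 FPKM, MIR196A2 only at its lowest possible untreated value. In that range 21.7% of all loci passed 1.5-fold, and only 1 of the 28 HOX loci lay there. The MIR196A2 locus in cluster C stood furthest apart, with 0.226 FPKM in LATS2 OE and at least 1.47 FPKM in untreated cells, or at least 6.52-fold lower. This locus, at chr12:54385522-54386465 in hg19, begins with the hairpin of miR-196a and lies in an intron of an annotated HOXC6 transcript. It is 944 bases long, and loci as short as this were often far apart: 36.9% of the 1137 loci of at most 1000 bases passed 1.5-fold, and 3 of them (0.264%) lay at least as far from 1 as MIR196A2, itself included. Poly(A) libraries measure the precursor transcript, not the mature microRNA, and the level of miR-196a was not measured. The other 4 were loci without a gene name in cluster D. Of these, 2 lie in the bundle of HOXD10 and HOXD11, and both were higher in LATS2 OE. The first had 0.917 FPKM in LATS2 OE and 0.413 FPKM in untreated cells (2.22-fold), and the other had 0.426 FPKM in LATS2 OE and 0.282 FPKM in untreated cells (1.51-fold). The remaining 2 were lower in LATS2 OE. A locus of 390 bases had 0.166 FPKM in LATS2 OE and 0.350 FPKM in untreated cells, and a locus of 1068 bases had 0.0891 FPKM in LATS2 OE and 0.151 FPKM in untreated cells.

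**Figure D4:**
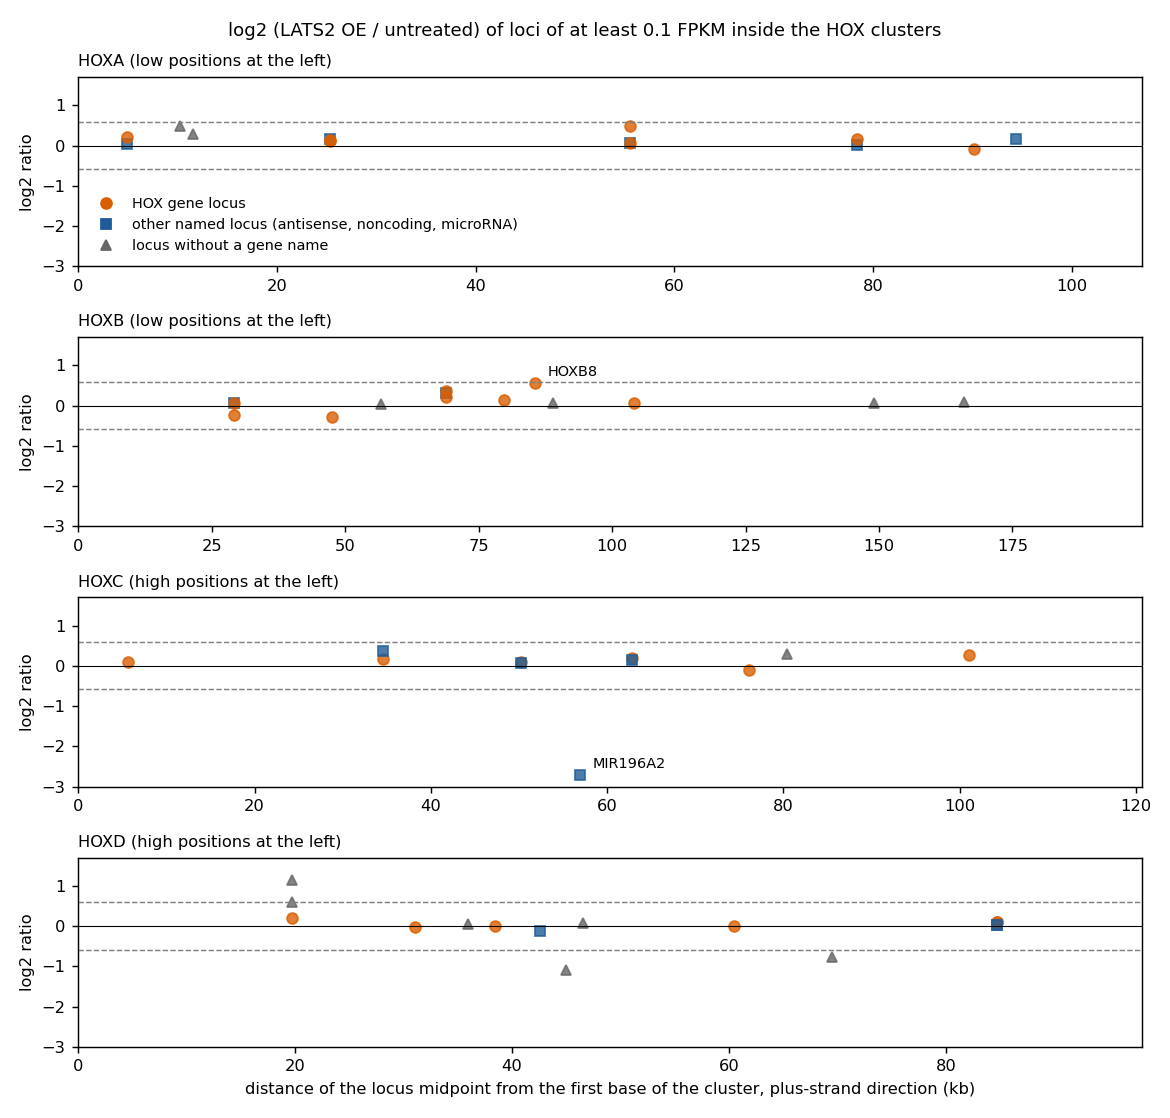
The log2 ratio of pooled FPKM, LATS2 OE over untreated (vertical axis), of loci with a mean of at least 0.1 FPKM inside the HOX clusters, 1 HOX locus left out, by distance of the locus midpoint from the first base of the cluster in kb (horizontal axis). Circles are HOX loci, squares other named loci and triangles loci without a gene name, and dashed lines mark 1.5-fold. The HOX loci lie inside the dashed lines, MIR196A2 at -2.70 and 4 triangles in cluster D outside.

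None of the named long noncoding genes passed 1.5-fold at the smallest possible change. The following genes were named after their values were seen. HOTAIR, transcribed between HOXC11 and HOXC12 and known to bind Polycomb components, had at least 1.10 FPKM in LATS2 OE and 0.848 FPKM in untreated cells. Its log2 ratio of at least 0.37 was the highest of these genes, beside 0.16 for its neighbour HOXC11. HOXB-AS3, which overlaps HOXB5 and HOXB6, had at least 4.15 FPKM in LATS2 OE and 3.33 FPKM in untreated cells (0.32), beside 0.38 for HOXB5 and 0.22 for HOXB6. The libraries, per the kit, do not mark strand, so fragments of HOXB-AS3 and of the HOXB genes it overlaps cannot be told apart. The annotated spans of HOTAIR and HOXC11 overlap too, and fragments from the shared stretch cannot be told apart either. HOTAIRM1, beside HOXA2, had at least 8.95 FPKM in LATS2 OE and 8.70 FPKM in untreated cells (0.04). HAGLR, beside HOXD1, had at least 5.64 FPKM in LATS2 OE and 5.50 FPKM in untreated cells (0.04). MIR10A and MIR615 were listed at 0 in both groups. Of 31 entries in the list of noncoding genes of the clusters, 12 had no locus of that name, and 1 of the 14 with a mean of at least 0.1 FPKM, MIR196A2, passed 1.5-fold.

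The miR-196 seed match ACTACCT, searched on the transcribed strand only, was in the 3′ UTR of 9 of the 39 HOX genes (23.1%), against 1476 of 19284 genes (7.65%). The HOX 3′ UTRs had a median length of 952 bases and those of all genes 1222 bases. HOXA7 held 4 matches, HOXC8 held 3, HOXA9 held 2, and HOXA5, HOXB1, HOXB6, HOXB7 and HOXB13 were among those with a single match. HOXB8 held none and was found through the 21 paired bases of the site printed above. Such pairing was counted in HOX 3′ UTRs only, so no share over all genes stands beside it. Among HOX loci with a ratio, the median was 0.15 on the log2 scale for the 7 with a seed match and 0.10 for the 21 without, HOXB8 among them. Both sets overlapped over most of their range. The seed match of miR-10, ACAGGGT, was in 3 HOX 3′ UTRs (7.69%), against 13.7% of all genes.

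GGAATG and its reverse complement CATTCC, the core letters bound by the TEAD partners of YAP, were searched on both strands in windows of 300 bases around gene starts, 250 before and 50 after, from RefSeq (GRCh38.p14). Windows were given for 20 of the 39 HOX genes. The letters were in 7 of 26 distinct HOX windows (26.9%) and in 14.0% of all 34943. The windows with a match belonged to HOXA3, HOXA10, HOXC4 and HOXC5 (which share one), HOXD4, HOXD8, HOXD10 and HOXD13. The log2 ratios of the loci of these genes, HOXD13 aside, lay between -0.01 for HOXD8 and 0.28 for the locus of HOXC4 and HOXC5. Loci with a ratio and with windows but no match lay between -0.09 for HOXA11 and 0.49 for the locus of HOXA5 and HOXA6. Of cluster B only HOXB1 had a window, so HOXB8, HOXB5 and HOXB4 were not searched. A match shows only that the letters are there.

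In the reading with the smallest change, genes that act with or on the HOX genes stayed within 1.5-fold as well. Of the 9 TALE cofactor genes with a mean of at least 0.1 FPKM, 0 passed 1.5-fold, with a median log2 ratio of 0.12, a lowest of -0.04 and a highest of 0.29 for MEIS2. Of 29 Polycomb genes 0 passed, with a median of 0.02 and the highest ratio for CBX8 at 0.43. Of 12 MLL and H3K27 demethylase genes, which counter Polycomb silencing, 0 passed. Of 11 retinoic acid pathway genes, through which low-numbered HOX genes are induced in the embryo, 0 passed. Their median was -0.02 and their spread was wider, from -0.54 for CYP26C1, which breaks down retinoic acid, to 0.47 for RXRA, a receptor subunit. None of the 6 ParaHox genes, the sister cluster of HOX, reached a mean of 0.1 FPKM. Among 11 genes that flank the clusters, TTLL6 passed with 0.130 FPKM in LATS2 OE and 0.0773 FPKM in untreated cells. Its mean lay just above the limit of 0.1 FPKM, and from 0.1 to 1 FPKM 21.7% of all loci passed 1.5-fold. The counts of all these lists stand beside the 8.48% of all loci. All Polycomb, MLL and H3K27 demethylase genes were at 1 FPKM or more in both groups, where the share was 3.15%. At such shares lists of this size would hold few loci past 1.5-fold, so a count of 0 was not read as stability.

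For LATS2 itself the groups were at least 2.01-fold apart in every possible reading of its cells. The damaged cells leave its direction unsettled, so the values used here could not check the induction. The direction of the YAP targets CTGF, ANKRD1 and AMOTL2, at least 1.98-fold apart, was unsettled as well. For LATS2 and these 3 targets the pair with the smallest change is higher in LATS2 OE and the next pair is lower, so the smallest-change reading cannot be relied on for the direction of strongly changed loci with damaged cells. CYR61, another YAP target, was lower in every possible reading, with at most 462 FPKM in LATS2 OE and 1181 FPKM in untreated cells. Of 16 podocyte markers, 8 were at 1 FPKM or more in both groups, among them PODXL, SYNPO, CD2AP and ACTN4. NPHS1, which encodes the slit diaphragm protein nephrin, was under 0.1 FPKM in both groups, so a defining marker of mature podocytes was nearly absent. WT1 stood at 0.412 FPKM in LATS2 OE and 0.413 FPKM in untreated cells. Of the podocyte markers NES passed 1.5-fold, with 0.917 FPKM in LATS2 OE and 0.539 FPKM in untreated cells. None of 5 endothelial markers reached 0.1 FPKM on average. Other cell types had markers at 1 FPKM or more in both groups. These were 1 of 7 tubular markers (AQP1), 2 of 5 mesangial markers (PDGFRB and ACTA2) and 1 of 5 leukocyte markers (CD68). Of the tubular, mesangial and leukocyte markers with a mean of at least 0.1 FPKM, none passed 1.5-fold.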

How the data were processed

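Poly(A) RNA of 4 LATS2 OE and 4 untreated samples was sequenced. Per the labels and the methods of the study, Trimmomatic (0.33) was used for trimming, TopHat for alignment to hg19 and the Cufflinks package for quantification. The versions of TopHat and Cufflinks were not given in the sources used here, nor was the gene annotation. The authors deposited FPKM that are pooled, with a single value per locus and group. Further columns hold the authors' log2 fold changes, test statistics, p-values, q-values and calls. These were not used. A comparison across samples with limma had been planned and could not be run on pooled values. Depth per sample is unknown.

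The deposited cells have 6 significant digits, and cells of at least 1 FPKM with 3 to 5 decimals lost their decimal point. All possible values were listed for both groups, and the pair with the smallest change gave the ratio, without a pseudocount. This step was tested on simulated data. It takes a change of more than about 3-fold in such cells for a smaller one, and the background shares were computed in the same way. Ratios were read for loci with a mean of both groups of at least 0.1 FPKM, and 1.5-fold was the limit. Locus starts in the table count from 0 and were raised by 1, after which 9564 of 25612 named loci began at a transcript start of GENCODE for GRCh37 (1083 as deposited). Target sites were searched in the 3′ UTR of 1 transcript per gene.

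The members and the gene lists were chosen with earlier results of these data known. Named were all HOX loci but 1, which is counted but not reported here by name, and from every other list the genes past 1.5-fold, at most 4, with further genes named after their values were seen. Alternatives covered the filter, the pseudocount, the fold limit, centring, intact cells and merged loci. Python 3.11.15 and matplotlib 3.10.9 were used.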

Additional observations from a re-analysis of the deposited data

How the results depend on the processing

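The count of HOX loci past 1.5-fold was 0 (8.48% of all loci). It remained 0 with a mean of at least 0.5 FPKM (4.45%) or 1 FPKM (3.59%). It was also 0 with a pseudocount of 0.1 FPKM (5.71%) or 1 FPKM (1.45%) and after centring on the median of all loci (8.45%). Over loci with 1 gene name (8.61%) and with a limit of 2-fold (2.66%) the count was 0 too. It was 2 without a filter on low values (15.3% of all loci). There HOXB13 and HOXD13, both under 0.1 FPKM, passed, as 46.8% of all loci under 0.1 FPKM did. It was 3 with the lower fold limit, a log2 ratio of 0.32 (19.4% of all loci). The median log2 ratio ran from 0.07 to 0.11 and kept its direction under every alternative run. The count of loci higher in LATS2 OE was 21 of 28 (50.6% of all loci). It was 24 of 32 without a filter (51.8%) and 17 of 24 over loci with 1 gene name (50.5%). Over loci below 1 FPKM in both groups it was 1, because HOXC13 alone remained. The only HOX loci whose cells are all intact are thus those below 1 FPKM, and for all others the ratio rests on the reading with the smallest change. Leaving out each replicate could not be run, as the table holds pooled values. No paired analysis was possible because no value of a single sample is in the table.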
